A study of Mus musculus with 12 samples.

Results

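The genes described here belong to mast cells, basophils and eosinophils. They are a list of 9, chosen by the difference between arrays with and without N-acetyl-L-cysteine (NAC) in cells that lack Mll5, where the list was described as higher with NAC. NAC is an antioxidant, and Mll5, now named Kmt2e, is a chromatin regulator. Of the 9 genes, 8 had a probe set assigned to them alone among the 22180 genes measured in this way, and each of the 8 had 1 probe set. They were Prg2, Prg3, Hdc, Fcer1a, Ms4a2, Cpa3, Mcpt8 and Epx. Il1rl1, the receptor for interleukin 33, had none and has no values here.

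The arrays measured LSK cells, the bone marrow fraction that lacks lineage markers and carries Sca1 and Kit, which is rich in haematopoietic stem cells and multipotent progenitors. The mice were C57BL/6, either Mll5+/+ (wild type) or Mll5-/- (mutant), and were born to Mll5+/- parents. The mock groups were not given NAC, and the NAC groups had 1 g per liter in the drinking water, starting when the parents were mated and continuing for life. Each of the 4 groups, wild-type mock, wild-type NAC, mutant mock and mutant NAC, had 3 arrays. The labels give neither the age of the mice nor the part of the gene that was deleted, and they do not say if mice were pooled or if each array had its own animals. What the p-values measure is therefore the spread among the arrays at hand, and that spread may be technical.

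Mast cells, basophils and eosinophils are the granulocytes of allergy and of defence against parasites. Mast cells and basophils carry the high-affinity receptor for immunoglobulin E, which joins the chains encoded by Fcer1a, Ms4a2 and Fcer1g, and release histamine, which the enzyme Hdc makes. Eosinophil granules hold the toxic major basic protein, encoded by Prg2, its relative encoded by Prg3, and eosinophil peroxidase, encoded by Epx. Cpa3 is a carboxypeptidase of mast cell granules and Mcpt8 a protease of basophil granules. These cells can arise from bone marrow progenitors that use the factor Gata2. Some of the granule genes are switched on in progenitors well before the mature cell appears.

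The sequences upstream of 5 genes are shown because they cover the 3 members whose mutant groups did not overlap (Prg3, Hdc and Fcer1a), the partner of Fcer1a in the receptor (Ms4a2), and the 1 member that was lower with NAC in both genotypes (Epx). They are RefSeq windows of GRCm38.p6, from 250 bases before to 50 bases after the start of the gene, written 5′ to 3′ on the strand of the gene. Capitals mark GATAA, the core that GATA factors recognise, read on either strand, so that a match on the other strand appears as TTATC. The windows are chr2:84987965-84988264 on the plus strand for Prg3 and, on the minus strand, chr2:126618629-126618928 for Hdc, chr1:173227180-173227479 for Fcer1a, chr19:11623670-11623969 for Ms4a2 and chr11:87875487-87875786 for Epx.
Prg3: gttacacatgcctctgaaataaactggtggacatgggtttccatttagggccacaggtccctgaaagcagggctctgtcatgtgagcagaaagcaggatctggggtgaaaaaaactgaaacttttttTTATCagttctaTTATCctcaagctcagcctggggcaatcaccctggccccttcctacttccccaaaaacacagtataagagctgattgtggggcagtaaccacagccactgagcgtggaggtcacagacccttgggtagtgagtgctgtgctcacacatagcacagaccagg
Hdc: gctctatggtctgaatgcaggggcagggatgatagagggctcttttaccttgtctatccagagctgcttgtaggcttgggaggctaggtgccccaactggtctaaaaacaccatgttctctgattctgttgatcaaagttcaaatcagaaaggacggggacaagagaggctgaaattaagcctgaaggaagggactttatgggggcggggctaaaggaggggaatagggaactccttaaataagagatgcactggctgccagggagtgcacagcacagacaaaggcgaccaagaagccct
Fcer1a: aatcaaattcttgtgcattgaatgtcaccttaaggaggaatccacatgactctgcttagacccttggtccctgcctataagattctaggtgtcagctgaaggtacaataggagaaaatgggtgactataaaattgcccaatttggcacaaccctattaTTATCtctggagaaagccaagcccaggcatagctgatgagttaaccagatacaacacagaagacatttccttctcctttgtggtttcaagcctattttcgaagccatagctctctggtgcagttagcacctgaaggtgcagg
Ms4a2: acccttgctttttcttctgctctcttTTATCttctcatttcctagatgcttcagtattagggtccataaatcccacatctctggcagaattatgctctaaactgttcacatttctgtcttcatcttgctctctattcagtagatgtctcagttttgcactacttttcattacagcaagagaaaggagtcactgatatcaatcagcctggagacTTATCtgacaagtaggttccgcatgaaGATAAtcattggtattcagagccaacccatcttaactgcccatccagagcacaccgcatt
Epx: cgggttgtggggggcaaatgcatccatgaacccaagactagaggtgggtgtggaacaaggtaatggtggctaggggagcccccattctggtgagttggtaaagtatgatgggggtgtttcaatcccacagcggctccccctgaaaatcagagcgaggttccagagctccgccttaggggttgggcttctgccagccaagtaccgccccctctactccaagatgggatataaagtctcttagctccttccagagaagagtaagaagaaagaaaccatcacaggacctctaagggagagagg

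The Fcer1a window held 1 match, whose bases lay 92 to 88 bases before the start. The Ms4a2 window held 3 matches, beginning 224, 37 and 10 bases before the start, and the Prg3 window held 2, beginning 123 and 111 bases before it. The windows of Hdc and Epx held none. Among the members whose windows are not printed, Cpa3 had 1 match, 45 bases before its start, and Mcpt8 had none. Il1rl1, which has no values, had 3 matches over its 2 windows. Prg2 had no window. Of the 7 measured members with a window, 4 held the letters (5 of 8 with Il1rl1), beside 25.4% of the 32851 windows in the table. The members are counted by gene and the 25.4% by window, and a gene with 2 windows, such as Il1rl1, can match in either. A match is a description of these letters and not a binding site.

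Across the 12 arrays the median signal lay between 2.89 and 2.96 on the log2 scale, and the correlation between any pair of arrays was 0.976 to 0.988. The lowest array weights were those of mutant NAC replicate 1 (0.54) and of wild-type mock replicate 1 (0.71), the 2 arrays that stood apart. Signals of different probe sets are not on one scale, so the marker levels describe the arrays and do not test the sort. Kit gave a log2 signal of 8.74 to 9.24 over all arrays and Cd34, a surface protein of progenitors, 9.87 to 10.52, while Cd3e, of T cells, gave 2.04 to 2.52 and Ms4a1, of B cells, 1.60 to 1.93. Cd79b, of the B cell receptor, gave 5.86 to 6.72 and Nkg7, of cytotoxic granules, 8.75 to 9.84, so not every lymphoid marker was dim. Ly6a, which encodes Sca1, had no probe set of its own. In sorted cells measured in bulk, fewer cells of a type and less RNA per cell cannot be told apart.

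The members differed in how bright their probe sets were. The median gene had a mean log2 signal of 3.17. Fcer1a stayed below this level in every array (1.63 to 3.06), and Prg3 (2.68 to 4.28), Epx (2.68 to 3.98) and Ms4a2 (3.01 to 4.61) lay on both sides of it. Prg2 (4.66 to 7.80), Hdc (4.49 to 6.37), Cpa3 (5.78 to 6.81) and Mcpt8 (5.62 to 7.23) were above it in every array. The deposited values carry no detection calls, so whether the dim members were above background was not tested.

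Genes of the mature cells spanned dim and bright probe sets. Below the median gene level in every array of a group were 13 or 14 of 20 mast cell granule and receptor genes, 3 or 4 of 9 basophil genes and 6 to 8 of 9 eosinophil genes, depending on the group. Among mast cell granule and receptor genes, Cma1 (1.66 to 2.17), Mcpt4 (1.61 to 2.51) and Tpsb2 (1.74 to 2.12), which encode proteases of mature mast cells, and Mrgprb2 (1.89 to 2.31), a receptor of connective tissue mast cells, never reached the median gene level. Other genes of the same list were above it in every array. Among them were genes that other blood cells share, such as Srgn, the granule proteoglycan serglycin (8.49 to 8.93). Cd63, a granule membrane protein (8.81 to 9.58), and Ctsg (9.34 to 10.85) were 2 more. Slc18a2, which loads histamine into granules (6.53 to 7.45), and Ltc4s (3.77 to 4.78) were above it as well. Among eosinophil genes, the chemokine receptor Ccr3 (1.74 to 2.23) and Il5ra (2.11 to 2.81), the receptor chain for interleukin 5, were below it too, and Siglecf, a lectin of eosinophils, was above it (3.68 to 4.85). Among basophil genes, Prss34, a protease of basophils and some mast cells, gave 4.64 to 6.75, and Cd200r3, a surface receptor of basophils, 1.91 to 2.33. The third chain of the immunoglobulin E receptor, Fcer1g, which many myeloid cells share, gave 7.46 to 8.62, and Gata2 6.94 to 7.86.

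**Figure D1:**
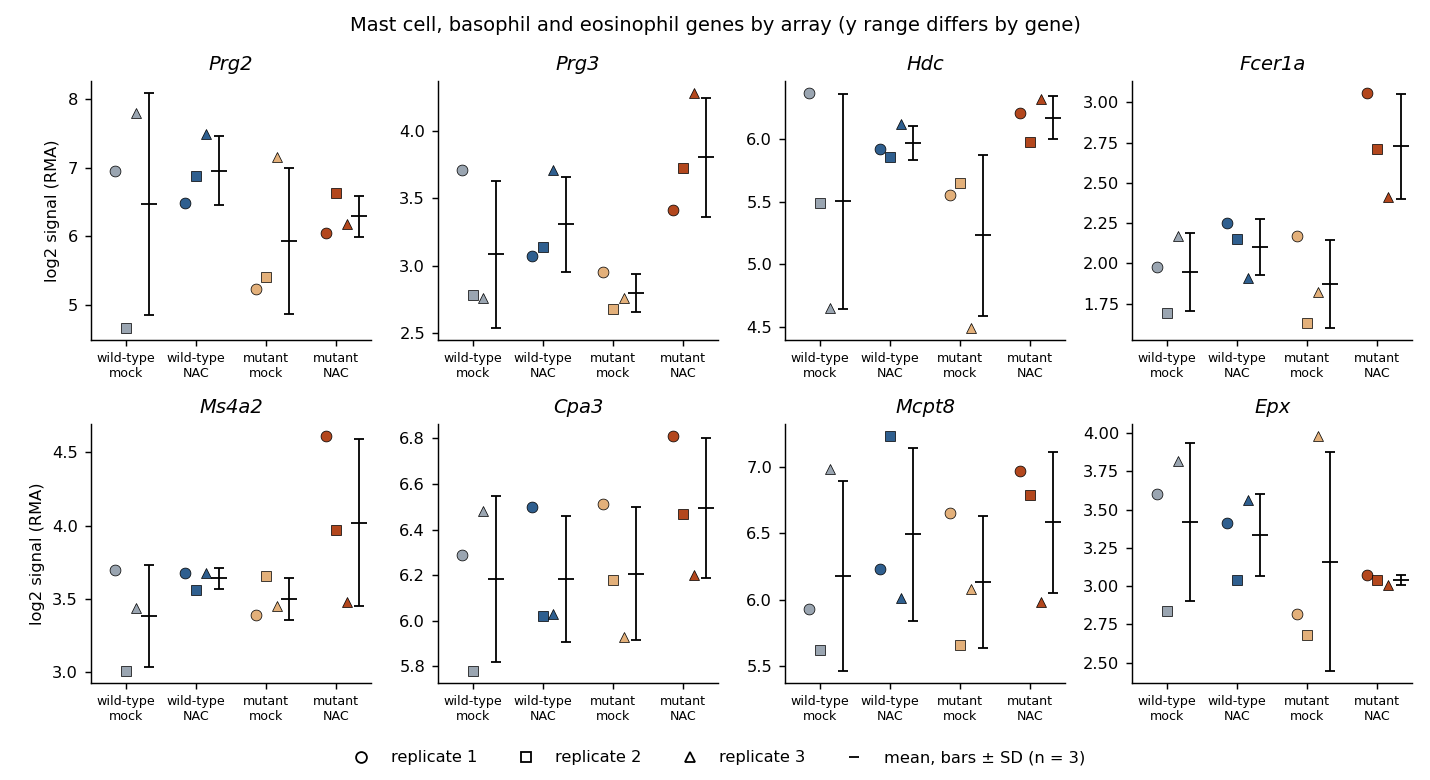
Log2 signal (RMA) of the 8 measured genes in each array, with 3 arrays per group; marker shapes give the replicate number, and the bars to the right of each group are the mean ± SD. Prg3, Hdc and Fcer1a have all 3 mutant NAC arrays above all 3 mutant mock arrays, while in wild type the mock and NAC arrays overlap for every gene.

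The values by which the list was chosen are those of NAC against mock in the mutant, and they are given as a description without a test. Of the 8 measured members, 7 were higher with NAC, beside 49.8% of all genes, with a median log2 difference of 0.48 over the 8 beside 0.00 over all genes, and 4 differed by at least 0.5, beside 1.54% of all genes. In 3 of the 8, all NAC arrays lay above all mock arrays, which was so for 5.08% of all genes, and in none did all lie below, as in 5.14% of all genes. Epx was not higher, so the label of the list does not cover it.

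The largest difference in the mutant was that of Prg3. Its log2 signal was 2.95, 2.68 and 2.76 in the 3 mutant mock arrays and 3.41, 3.72 and 4.28 in the 3 mutant NAC arrays. The NAC arrays were all higher, by 1.01 on the log2 scale (SE 0.27), about 2.01-fold. Hdc gave 5.55, 5.65 and 4.49 in mutant mock and 6.21, 5.98 and 6.32 in mutant NAC, a difference of 0.94 (SE 0.37). Mutant mock replicate 3 was the low array here, and without it the difference was 0.57. For Hdc the groups did not overlap, and the NAC arrays were closer to each other (SD 0.17) than the mock arrays (SD 0.64).

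Both specific chains of the immunoglobulin E receptor were higher in the mutant with NAC. Fcer1a, the chain that binds the antibody, gave 2.17, 1.63 and 1.82 in mutant mock and 3.06, 2.71 and 2.41 in mutant NAC, a difference of 0.85 (SE 0.19) with no overlap. Ms4a2, the beta chain that amplifies the signal, gave 3.39, 3.66 and 3.45 in mutant mock and 4.61, 3.97 and 3.48 in mutant NAC, a difference of 0.52 (SE 0.24). For Ms4a2 the groups overlapped, since mutant NAC replicate 3 lay below mutant mock replicate 2. Mutant NAC replicate 1, which stood apart in the whole array, was the highest of all 12 arrays for both genes; without it the differences were 0.69 for Fcer1a and 0.22 for Ms4a2. Fcer1g, the shared gamma chain, had a mutant difference of 0.46 (SE 0.18).

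The granule proteases Cpa3 and Mcpt8 had smaller differences in the mutant, and their groups overlapped. Cpa3 gave 6.51, 6.18 and 5.93 in mutant mock and 6.81, 6.47 and 6.20 in mutant NAC, a difference of 0.29 (SE 0.22) that was 0.13 without mutant NAC replicate 1. Mcpt8 gave 6.65, 5.66 and 6.08 in mutant mock and 6.97, 6.79 and 5.98 in mutant NAC, a difference of 0.45 (SE 0.40) that ranged from 0.21 without mutant mock replicate 2 to 0.75 without mutant NAC replicate 3. In both genes mutant NAC replicate 3 was the lowest of the NAC arrays.

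Prg2 and Epx, both of eosinophil granules, had mutant groups that overlapped widely. Prg2 gave 5.23, 5.40 and 7.15 in mutant mock and 6.05, 6.63 and 6.18 in mutant NAC, a difference of 0.36 (SE 0.66). Its mutant mock arrays spanned the NAC arrays on both sides, and leaving out mutant mock replicate 3 gave 0.97, while leaving out mutant mock replicate 1 gave 0.01. Epx gave 2.82, 2.68 and 3.98 in mutant mock and 3.07, 3.04 and 3.01 in mutant NAC, a difference of -0.12 (SE 0.31). Here too mutant mock replicate 3 was the high array, and without it the difference was 0.29.

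The difference between NAC and mock in wild type comes from arrays that did not serve to choose the list, although its SE and p also draw on the spread within the mutant groups. The comparison asked whether the antioxidant also moves these genes where Mll5 is present. Of the 8 members, 6 were higher with NAC, Cpa3 had a difference of 0.00 and Epx was lower. The median difference was 0.24 beside -0.0033 over all genes, and 49.3% of all genes were higher. No member passed limma's test at an adjusted p under 0.05, as 0.00902% of all genes did, and none had an unadjusted p under 0.05, as 5.92% of all genes did. In none of the 8 were the groups free of overlap, beside 5.42% of all genes with every NAC array higher and 5.32% with every NAC array lower.

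In wild type Hdc gave 6.37, 5.49 and 4.65 in mock and 5.92, 5.86 and 6.12 in NAC. Wild-type mock replicate 1, which stood apart, was the highest and wild-type mock replicate 3 the lowest of the 6, and the NAC arrays lay close together between them. The difference was 0.46 (SE 0.37, 95% interval -0.33 to 1.26, limma adjusted p = 0.907); leaving out wild-type mock replicate 1 gave 0.90, and leaving out wild-type mock replicate 3 gave 0.04. Prg3 gave 3.71, 2.78 and 2.76 in mock and 3.07, 3.14 and 3.71 in NAC. Its highest mock array, again replicate 1, equalled its highest NAC array, and the difference was 0.22 (SE 0.27, 95% interval -0.37 to 0.82, limma adjusted p = 0.947), or 0.54 without wild-type mock replicate 1 and 0.02 without wild-type NAC replicate 3.

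The receptor chains and proteases varied in wild type without a shift that exceeded their spread. Fcer1a gave 1.98, 1.69 and 2.17 in wild-type mock and 2.25, 2.15 and 1.91 in wild-type NAC, a difference of 0.16 (SE 0.19, 95% interval -0.26 to 0.58, limma adjusted p = 0.947). Ms4a2 gave 3.70, 3.01 and 3.44 in mock and 3.68, 3.56 and 3.68 in NAC, a difference of 0.26 (SE 0.24, 95% interval -0.26 to 0.78, limma adjusted p = 0.920). The arrays of both genes overlapped between the treatments. The difference between the genotypes in the NAC effect was not tested, because it holds the contrast by which the members were chosen.

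Cpa3 gave 6.29, 5.78 and 6.48 in wild-type mock and 6.50, 6.02 and 6.03 in wild-type NAC, with equal means (SE of the difference 0.22, 95% interval -0.48 to 0.48, limma adjusted p = 1.0). Mcpt8 gave 5.93, 5.62 and 6.98 in mock and 6.23, 7.23 and 6.01 in NAC, a difference of 0.31 (SE 0.40, 95% interval -0.55 to 1.18, limma adjusted p = 0.949) that turned to -0.06 without wild-type NAC replicate 2. A single array of each group was high for Mcpt8. Prg2 gave 6.95, 4.66 and 7.80 in mock and 6.49, 6.88 and 7.49 in NAC, a difference of 0.48 (SE 0.66, 95% interval -0.94 to 1.91, limma adjusted p = 0.949). Wild-type mock replicate 2 was the lowest of all 12 arrays for Prg2, and without it the difference was -0.42. Epx gave 3.60, 2.84 and 3.82 in mock and 3.41, 3.04 and 3.56 in NAC, a difference of -0.08 (SE 0.31, 95% interval -0.76 to 0.59, limma adjusted p = 0.985); its sign turned when wild-type mock replicate 3 (0.12), wild-type mock replicate 1 (0.01) or wild-type NAC replicate 2 (0.06) was left out. The members' median was 0.03 without wild-type mock replicate 2, which was the lowest of the 6 wild-type arrays for 6 of the 8 genes.

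**Figure D2:**
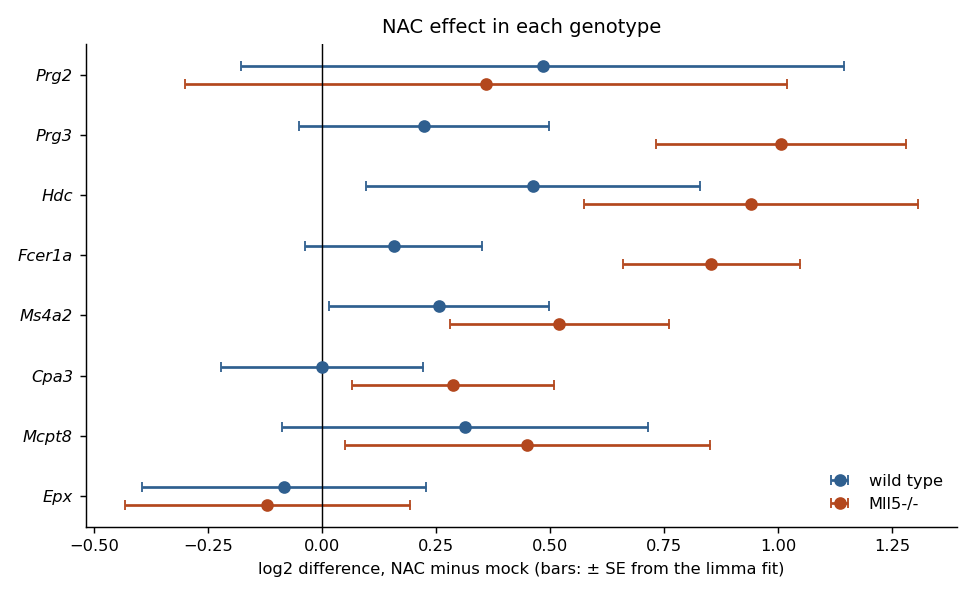
Log2 difference between NAC and mock arrays for each gene in wild type (blue) and in Mll5-/- (red-brown), with bars of ± SE from the limma fit over 12 arrays. The mutant differences, on which the genes were chosen, are largest for Prg3 (1.01), Hdc (0.94) and Fcer1a (0.85), and the wild-type differences run from -0.08 for Epx to 0.48 for Prg2.

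Mutant against wild type over both treatments compared 6 arrays with 6, and asked whether the loss of Mll5 shifts these genes whatever the mice drank. This contrast is orthogonal to the one by which the members were chosen. Of the 8 members, 5 were higher and 3 lower in the mutant, beside 50.8% of all genes higher, with a median of 0.06 beside 0.00 over all genes. None passed limma's test at an adjusted p under 0.05, as 0.00902% of all genes did, and none had an unadjusted p under 0.05, as 9.08% of all genes did. No member had all arrays of one genotype above those of the other, beside 0.311% of all genes with every mutant array higher and 0.234% with every mutant array lower.

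Of the 8 members, Prg2 and Epx had the lowest genotype differences. Prg2 had a mean of 6.11 in the mutant and 6.71 in wild type, a log2 difference of -0.60 (SE 0.47, 95% interval -1.61 to 0.40, limma adjusted p = 0.739) that was -1.06 when wild-type mock replicate 2 was left out and -0.27 when wild-type mock replicate 3 was. Epx differed by -0.28 (SE 0.22, 95% interval -0.76 to 0.20, limma adjusted p = 0.747). Both genes kept their direction when each array was left out in turn. Fcer1a differed by 0.28 (SE 0.14, 95% interval -0.02 to 0.57, limma adjusted p = 0.578) and Ms4a2 by 0.25 (SE 0.17, 95% interval -0.12 to 0.62, limma adjusted p = 0.697), and without mutant NAC replicate 1 these were 0.19 and 0.10. Cpa3 differed by 0.17, Prg3 by 0.10, Mcpt8 by 0.02 and Hdc by -0.04, with limma adjusted p from 0.790 to 0.987 over these 4 genes. The signs of Prg3, Mcpt8 and Hdc turned when single arrays were left out, with ranges of -0.01 to 0.26, -0.12 to 0.22 and -0.25 to 0.18.

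Within each treatment the genotype comparisons share the mutant arrays by which the members were chosen, so their values are given without a test. In mock, 2 members were higher and 6 lower in the mutant, beside 50.5% of all genes higher, with a median difference of -0.17. No member's groups were apart there, beside 5.94% of all genes with every mutant array higher and 5.46% with every mutant array lower. In NAC, 6 were higher and 2 lower, beside 50.9% of all genes higher, with a median of 0.26. Of the 8, Fcer1a alone had all mutant arrays above all wild-type arrays (0.62, SE 0.19), beside 6.39% of all genes, and none had all below, beside 6.05%. Prg3 differed by -0.29 in mock and 0.50 in NAC (SE 0.27 each). Prg2 differed by -0.54 in mock and -0.67 in NAC (SE 0.66 each), with overlapping groups in both.

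The members did not vary as 1 group from array to array. The following correlations are descriptions over the same 12 arrays, which share their normalization and fall into 4 groups, and the pairs were picked after all 28 pairs were seen. Prg2 and Epx were high and low in the same arrays (r = 0.83, rho = 0.86), with 0.87 between their deviations from the group means and 0.83 without the 2 arrays farthest from the median of Prg2. Both were high in wild-type mock replicate 3 and mutant mock replicate 3 and low in wild-type mock replicate 2 and mutant mock replicates 1 and 2. Prg3 and Hdc went together (r = 0.75, rho = 0.85), with 0.58 between deviations from the group means and 0.77 without the 2 arrays farthest from the median of Prg3. Prg2 and Prg3, which are neighbouring genes on chromosome 2 and encode related proteins, did not (r = 0.22, rho = 0.11, and -0.06 without 2 arrays).

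Fcer1a went with Cpa3 (r = 0.78, rho = 0.75), with 0.86 between deviations and 0.60 without the 2 arrays farthest from the median of Fcer1a, and with Mcpt8 (r = 0.66, rho = 0.61), with 0.79 and 0.56. The relation of Fcer1a with Ms4a2, its partner in the receptor, was 0.77 (rho = 0.44), with 0.58 between deviations. Without the same 2 arrays, mutant NAC replicates 1 and 2, it was 0.20, so it rested largely on them. Hdc and Epx had r = -0.44 over 12 arrays and 0.67 without the 2 arrays farthest from the median of Hdc, which were replicate 3 of both mock groups, where Hdc was low and Epx high.

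**Figure D3:**
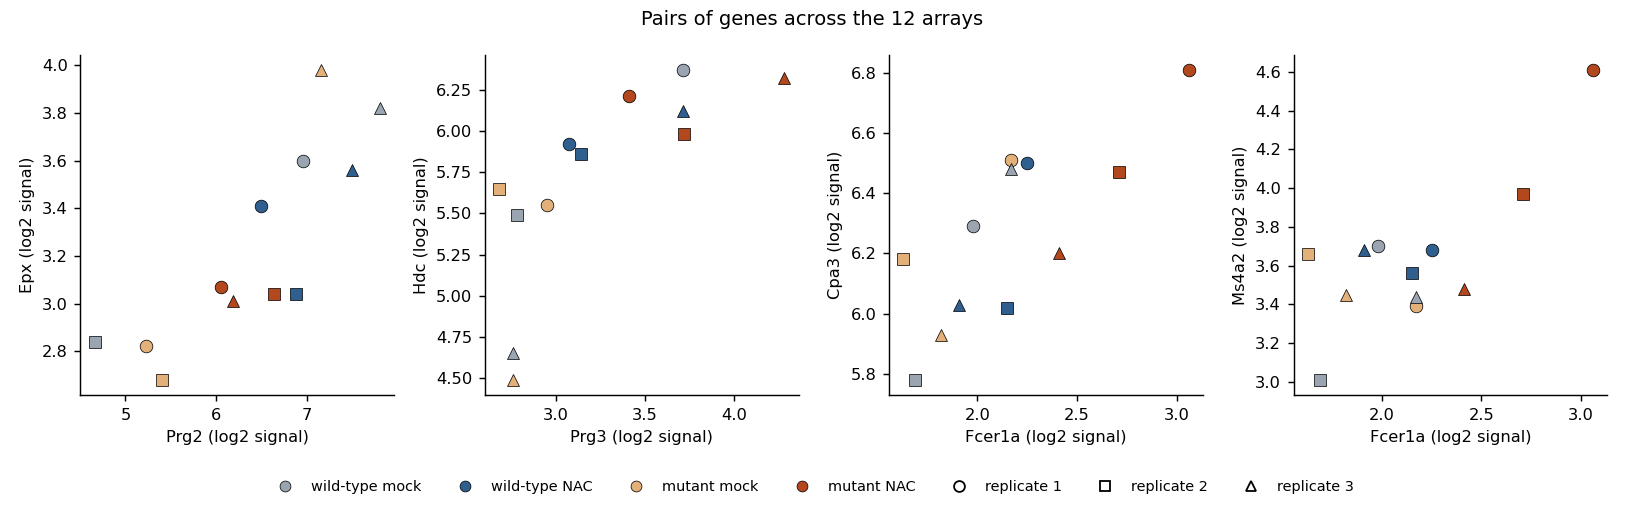
Log2 signals of 4 pairs of genes across the 12 arrays, coloured by group, with shapes for the replicate number. Prg2 and Epx rise together (r = 0.83), as do Prg3 and Hdc (0.75) and Fcer1a and Cpa3 (0.78). Fcer1a and Ms4a2 (0.77) are held together largely by mutant NAC replicates 1 and 2 at the upper right.

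Hdc and Prg3 also ran with genes of other myeloid cells. Of 20 neutrophil and monocyte progenitor genes, all measured, 18 were higher with NAC in wild type (median 0.46) and 14 in the mutant (median 0.56). In wild type limma called 0 of the 20, beside 0.00902% of all genes. These genes had 3 of the 20 at an unadjusted p under 0.05 there, beside 5.92% of all genes. Their mean per array ranged from 6.71 to 7.39 in wild-type mock, 7.31 to 7.47 in wild-type NAC, 6.13 to 7.12 in mutant mock and 6.88 to 7.42 in mutant NAC, and 3 of the 20 stayed under the median gene level in every array of each group. Over the 12 arrays this mean correlated with Hdc (r = 0.82, rho = 0.78, and 0.77 between deviations from group means) and with Prg3 (r = 0.72, rho = 0.84, and 0.72), and without the 2 arrays farthest from its median r was 0.72 for Hdc and 0.69 for Prg3. For the other 6 members r lay between -0.21 for Epx and 0.30 for Fcer1a. The part of these progenitor genes in the differences of Hdc and Prg3 was not tested.

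Stem cell and LSK genes mostly had differences below 0. Of 13 measured, 13 were lower with NAC in wild type (median -0.20) and 10 in the mutant (median -0.32). Of all genes, 49.3% were higher in wild type and 49.8% in the mutant. In wild type limma called 0.00902% of all genes and 0 of these 13. Their mean per array was 6.76 to 7.14 in wild-type mock, 6.68 to 6.86 in wild-type NAC, 6.90 to 7.09 in mutant mock and 6.53 to 6.84 in mutant NAC. This mean correlated with Hdc at r = -0.88 (rho = -0.84, and -0.81 between deviations) and with Ms4a2 at -0.68 (-0.53 between deviations). For Prg3 r was -0.61 and for Fcer1a -0.55, but between deviations only -0.30 and -0.17. For the other members r lay between -0.43 for Cpa3 and 0.27 for Epx. Of 14 erythroid genes 10 were measured, and 8 of these 10 were higher with NAC in each genotype (medians 0.35 in wild type and 0.31 in the mutant). Their means were 4.48 to 4.89 in wild-type mock, 4.78 to 5.09 in wild-type NAC, 4.55 to 5.14 in mutant mock and 5.03 to 5.55 in mutant NAC. These means correlated with Ms4a2 at r = 0.80 (rho = 0.69, and 0.64 between deviations) and with Hdc at 0.70 (rho = 0.57, and 0.60). Without the 2 arrays farthest from their median r was 0.61 for Ms4a2 and 0.62 for Hdc. For the other members r lay between -0.51 for Epx and 0.64 for Fcer1a, which had 0.24 between deviations. Megakaryocyte genes (medians -0.05 in wild type and 0.07 in the mutant, 13 measured) and T, B and NK cell genes (-0.04 and 0.01, 12 measured) had differences on both sides of 0. In the mutant Pf4, a platelet chemokine, differed by 1.12 (SE 0.39), more than any member, and Gp9, of a platelet receptor, by -0.58 (SE 0.26), while Nkg7 differed by 0.54 (SE 0.18) and Cd79a, of the B cell receptor, by 0.53 (SE 0.34). The part of these lists in the members' differences was not tested.

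The other genes of mast cells, basophils and eosinophils are given by the same counts and medians. In wild type no gene of these lists passed limma's test in either direction, beside 0.00902% of all genes. Mast cell granule and receptor genes had a median of 0.01 in wild type (10 of 20 higher) and 0.07 in the mutant (14 higher); among them Ctsg, a protease also made by neutrophil progenitors, had differences of 0.55 and 0.59 (SE 0.31 each). Basophil genes had a median of -0.16 in wild type (2 of 9 higher) and 0.06 in the mutant (6 higher). Prss34 had the largest mutant difference of that list, 0.76 (SE 0.49), and one of 0.29 in wild type (limma adjusted p = 0.960). Eosinophil genes had medians of 0.16 (7 of 9 higher) and 0.05 (6 higher). Siglecf differed by 0.44 in wild type (SE 0.17, limma adjusted p = 0.799) and 0.30 in the mutant, and Adgre1, an adhesion receptor of macrophages and eosinophils, by 0.44 (SE 0.20, limma adjusted p = 0.848) and 0.69.

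Genes that act downstream of the immunoglobulin E receptor mostly had differences below 0. IgE receptor signalling genes had medians of -0.07 in wild type (10 of 14 lower) and -0.18 in the mutant (10 lower). Of all genes, 49.3% were higher in wild type and 49.8% in the mutant. In wild type limma called 0 of the 14, beside 0.00902% of all genes. The adaptors Lat and Lat2 had mutant differences of -0.66 (SE 0.25) and -0.64 (SE 0.21) and wild-type differences of -0.31 and -0.22. Over both treatments Lat2 differed between the genotypes by -0.75 (SE 0.15, limma adjusted p = 0.130) and Fcer1g by -0.43 (SE 0.13, limma adjusted p = 0.331), opposite in sign to Fcer1a and Ms4a2. Histamine and eicosanoid genes had a median of -0.06 in each genotype, and Slc18a2, which loads histamine into granules, differed by -0.31 in wild type and -0.06 in the mutant while Hdc was higher in both.

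Cytokine receptors, ligands and lineage factors had medians near 0. Receptors and ligands had medians of 0.01 in wild type and -0.01 in the mutant over 21 genes. Il3ra, the chain of the interleukin 3 receptor that drives basophils and mast cells, differed by 0.12 and 0.18 (SE 0.26 each), and Il5ra by -0.01 and 0.20 (SE 0.14 each). Il33 (2.23 to 2.70 over all arrays), the ligand of Il1rl1, was dim, and Il1rap, its co-receptor, gave 3.03 to 4.13. The 22 transcription factors had medians of -0.0017 in wild type and -0.05 in the mutant. Gata2 had differences of -0.40 and -0.27 (SE 0.21 each), Gata1 of 0.05 and 0.16 (SE 0.19 each), Mitf, of mast cells, of 0.09 and -0.01 (SE 0.23 each), and Cebpa of 0.25 and 0.05 (SE 0.30 each). The mean of Gata2 was lower with NAC in both genotypes, and 6 members were higher in both. Gata2 gave 7.54 to 7.78 in wild-type mock and 7.01 to 7.47 in wild-type NAC. In the mutant its groups overlapped, with 7.67 to 7.86 in mock and 6.94 to 7.84 in NAC. The part of Gata2 in the members' differences was not tested.

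**Figure D4:**
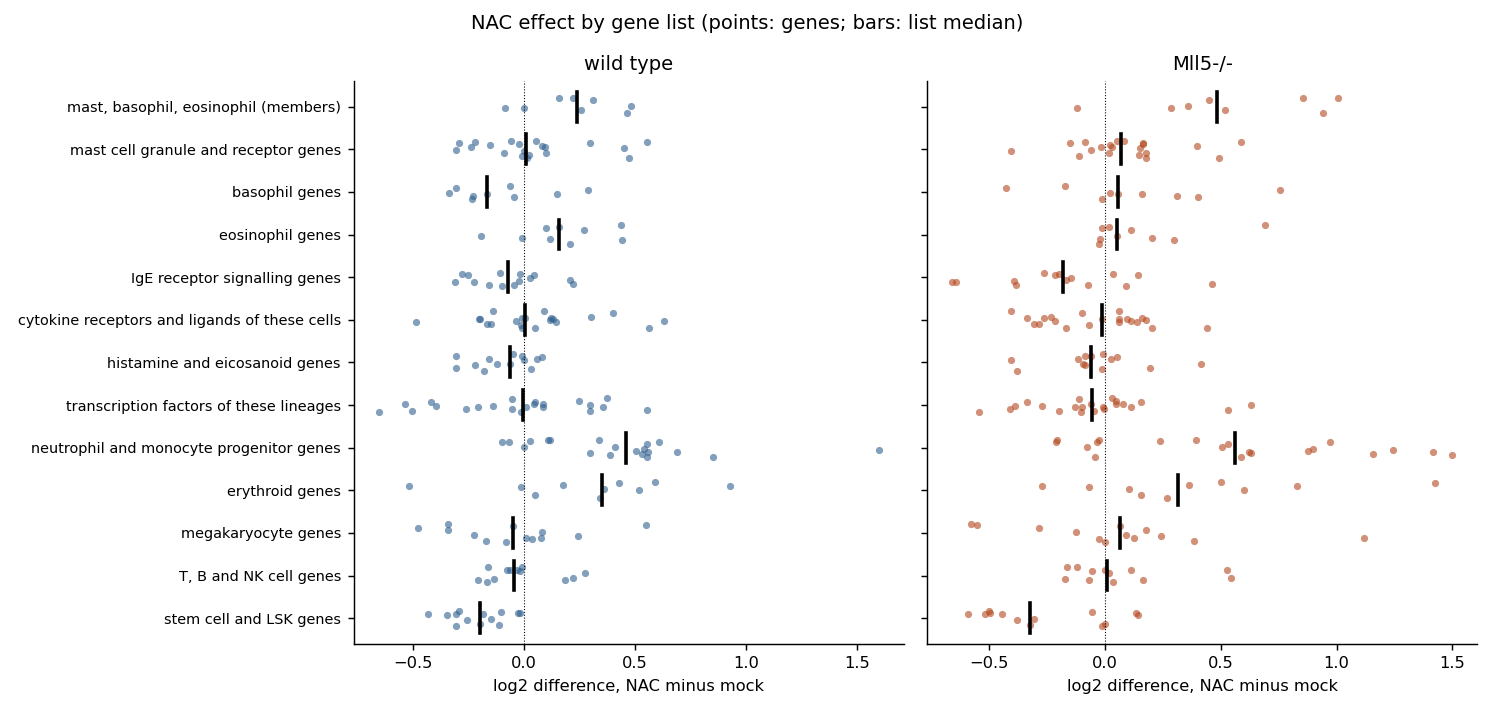
Log2 difference between NAC and mock for each gene of each list, in wild type (left) and Mll5-/- (right), with black bars at the list medians. The members' medians are 0.24 and 0.48, those of neutrophil and monocyte progenitor genes 0.46 and 0.56, and those of the other mast cell, basophil and eosinophil lists lie between -0.16 and 0.16.

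The genes most like the members were those with the highest correlation, over the 12 arrays, with the mean of the 8 centred members. The top 10 named genes had r from 0.82 to 0.88, which is a description with no test, since they are the best of all genes ranked on 12 arrays. They were Trem3, a receptor of myeloid cells (0.88), Chfr, a mitotic checkpoint ubiquitin ligase (0.87), Olfr572, an olfactory receptor gene (0.86), Phkg1, a phosphorylase kinase subunit (0.84), Trmu, of mitochondrial tRNA modification (0.84), Ifngr1, of the interferon gamma receptor (0.83), Zfp933, Rb1, the retinoblastoma protein, and Ipo8, a nuclear import protein (each 0.82), and Slc40a1, the iron exporter ferroportin (0.82). Their deviations from the group means correlated with those of the members at 0.67 to 0.95. Olfr572 (mean log2 signal 1.75), Phkg1 (2.45) and Slc40a1 (2.92) lay below the median gene level of 3.17, and the others lay above it. Whether these dim probe sets were above background was not tested. Prg2 had the widest spread of the members (SD 0.95 over all arrays), and 7 of the 10 genes remained in the top 10 when each member was scaled to the same spread.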

How the data were processed

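Biotin-labelled RNA of sorted LSK cells was measured on 12 arrays. The authors deposited log2 signals, for which the submitters' processing notes name RMA and Affymetrix Power Tools. RMA subtracts background, puts arrays on one distribution and gives 1 value per probe set. Log base 2 was inferred from the value range (0.74 to 13.23). Of 41345 probe sets, 23521 had 1 gene symbol; the brightest per symbol was kept, giving 22180 genes, of which 22139 were found in the RefSeq table of GRCm38.p6, used for names and neighbours. Probe sets with several symbols (1814) or no annotation (16010) were left out.

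Group means were estimated from the 12 arrays in limma 3.58.1 (R 4.3.3; lmFit, eBayes), with Benjamini-Hochberg adjustment over all genes at 0.05, after tests on simulated data. The members and gene lists were chosen with earlier results of these data known. For the members, tests were read only for NAC in wild type and for the genotype over both treatments; the interaction was read for other genes alone. Named were all members, their fixed partners, up to 4 genes per list with the largest NAC difference in each genotype, and the 10 genes most like the members. Lineage markers given by level, Lat2 and Fcer1g in the genotype comparison, and chromosomal neighbours were picked after their values were seen. Alternatives were a filter at the median gene level, array weights, centring on array medians, a second quantile normalization, a trended and robust variance, averaged probe sets per symbol, a replicate block, fits of only the groups compared, an adjusted p under 0.10, and leaving out arrays. Replicate numbers are not shown to pair the samples. Over 18 pairs with the same number in different groups, deviations over all genes correlated at -0.06 to 0.06. Whether arrays of the same number shared their handling was not tested. The median SE of a difference between 2 groups was 0.16; precision is limited by how many arrays there are.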

Additional observations from a re-analysis of the deposited data

Results flagged for a closer look

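The pattern looked for was all 3 NAC arrays of one genotype above and all 3 of the other below its mock mean. No member had it, which is a description only, because the pattern holds the contrast by which the members were chosen. Among 166 other listed genes, 5 had it, beside 6.65% of all genes. Btk, a kinase of immunoglobulin E receptor signalling, differed by -0.25 in wild type and 0.14 in the mutant. Id2, an inhibitor of DNA-binding factors, differed by 0.30 and -0.20. Il1rap, the co-receptor of Il1rl1, differed by 0.12 and -0.26. Il5, the eosinophil growth factor, differed by 0.40 and -0.10. Thbs1, thrombospondin, differed by 0.55 and -0.55. In limma's test of the interaction all 5 had an adjusted p of 0.999; 0 of 22180 genes passed it, and 934 had an unadjusted p under 0.05. Groups of 3 arrays are too small for a check of single outlying arrays.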

How the results depend on the processing

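With 3 arrays a group, single arrays decided the sign of several members, and no alternative brought a member past the threshold in either tested comparison. The lowest adjusted p under any alternative was 0.562 (Hdc) for NAC in wild type and 0.361 (Prg2) for the genotype. The 2 genes called for NAC in wild type, Igkj1 and Gprc5b, are no members; the count was 1 when only the groups compared were fitted and ran from 1 to 5 when each array was left out. It was 5 without wild-type NAC replicate 2, mutant mock replicate 2 or mutant NAC replicate 3, and 1 without wild-type mock replicates 2 or 3, wild-type NAC replicate 1, mutant mock replicates 1 or 3 or mutant NAC replicate 2. The 2 genes called for the genotype over both treatments, AI506816 and Selp, became 4 with array weights or without both arrays that stand apart, 1 with the replicate block, 12 at an adjusted p under 0.10, and 1 to 7 when each array was left out. It was 7 without mutant mock replicate 3, 5 without mutant NAC replicate 1, and 1 without wild-type mock replicate 1, wild-type NAC replicates 1 or 2, mutant mock replicates 1 or 2 or mutant NAC replicates 2 or 3. The block changed no other count or call, and the numbers are not shown to pair the arrays. The members' median for NAC in the mutant ran from 0.37 to 0.76 when each array was left out, highest without mutant NAC replicate 3. For NAC in wild type the signs of Prg2 and Mcpt8 reversed when an array was left out (ranges -0.42 to 1.15 and -0.0567 to 0.715), and so did that of Epx (-0.37 to 0.12), which was also 0.0067 without both arrays that stand apart. For the genotype over both treatments reversals occurred for Prg3 (-0.0142 to 0.26), Hdc (-0.25 to 0.18) and Mcpt8 (-0.12 to 0.22) when an array was left out. Without both arrays that stand apart Hdc differed by 0.17 and Mcpt8 by -0.14, and with array weights Mcpt8 differed by -0.0191. The cause was not tested. Fcer1a fell out of the filter at the median gene level and has no value there.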

Other observations

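Several members lie beside other blood cell genes, whose values were read from the same arrays. Ms4a3, of granulocyte and monocyte progenitors, is the next protein-coding gene after Ms4a2 on chromosome 19; its log2 signal was 7.78 ± 1.03 (SD, n = 3) in mutant mock and 9.20 ± 0.24 in mutant NAC, and 8.35 ± 0.72 and 9.04 ± 0.20 in wild type. The wild-type difference of Ms4a3 was 0.69 (SE 0.43, limma adjusted p = 0.880). Ctsg, the next gene after Mcpt8 on chromosome 14, gave 10.06 ± 0.66 in mutant mock and 10.64 ± 0.16 in mutant NAC. Il18r1, a receptor chain for interleukin 18 and the gene next to Il1rl1 on chromosome 1, had NAC differences of -0.49 in wild type (SE 0.24, limma adjusted p = 0.865) and 0.06 in the mutant (SE 0.24). Over both treatments Il18r1 differed between mutant and wild type by -0.56 (SE 0.17, limma adjusted p = 0.339). No test was run on whether neighbours vary together.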
